A study of Mus musculus with 8 samples.

Results

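A set of 10 genes of inflammatory signalling was examined in fasted mouse liver: the cytokines Tnf and Il1b, the chemokines Ccl2, Ccl5, Cxcl1, Cxcl9 and Cxcl10, the adhesion genes Icam1 and Vcam1, and Nfkbia, which encodes the NF-κB inhibitor IκBα. The members were the rows of the count table whose gene symbol equals a listed name, and all 10 of 10 were found among 45706 genes. The mice were C57BL/6J females, 4 months old, on regular chow until an overnight fast. There were 4 WT mice and 4 SA/SA mice, and each liver gave 1 library. SA/SA mice are homozygous for the S155A change of PLIN5, a lipid droplet protein, which puts alanine in place of a phosphorylated serine in every tissue and under the gene's own promoter, after CRISPR-Cas9 editing of a founder. The study asked what the loss of this phosphorylation site does to the fasting liver, and inflammation is 1 of the processes PLIN5 has been tied to. Animal numbers in the labels fall below 200 (the low series, replicates 1 and 4 of each genotype) or above 800 (the high series, replicates 2 and 3), and what sets the series apart is not stated.

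TNF and interleukin 1β bind receptors that free NF-κB from its inhibitors and so switch on genes for chemokines, adhesion molecules and the inhibitor IκBα itself, which closes a feedback loop. Chemokines draw leukocytes into tissue, and ICAM1 and VCAM1 on endothelial cells hold the integrins of those leukocytes. CXCL9 and CXCL10 are the classic chemokines of interferon-γ, whereas CXCL1 attracts neutrophils and can be made by hepatocytes themselves. In liver, most cytokine transcripts come from Kupffer cells, other leukocytes and the sinusoidal lining.

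None of the 10 genes differed between SA/SA and WT liver after correction. In edgeR's quasi-likelihood test, 0 of 10 passed an adjusted p of 0.05, where 0% of all 14629 genes tested passed. At an unadjusted p under 0.05 there was 1 member, Cxcl1, where 3.4% of all genes tested were below that value (1.42% higher and 1.98% lower in SA/SA mice). Cxcl1 was on the higher side. DESeq2 and limma-voom in place of edgeR also called 0 of 10 members, where they called 0.0411% and 0% of all genes. The values of the genotypes overlapped in all 10 genes, where 2.3% of all genes tested had groups that did not overlap. The log2 fold change was positive in 7 members and negative in 3, with a median of 0.095. Over all genes tested, 48.8% were positive and the median was -0.0050. Fold changes here are SA/SA against WT, with library sizes normalized by TMM, and p-values were adjusted by the Benjamini-Hochberg method over all genes tested. Levels are given in CPM, counts scaled to the normalized library size.

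**Figure D1:**
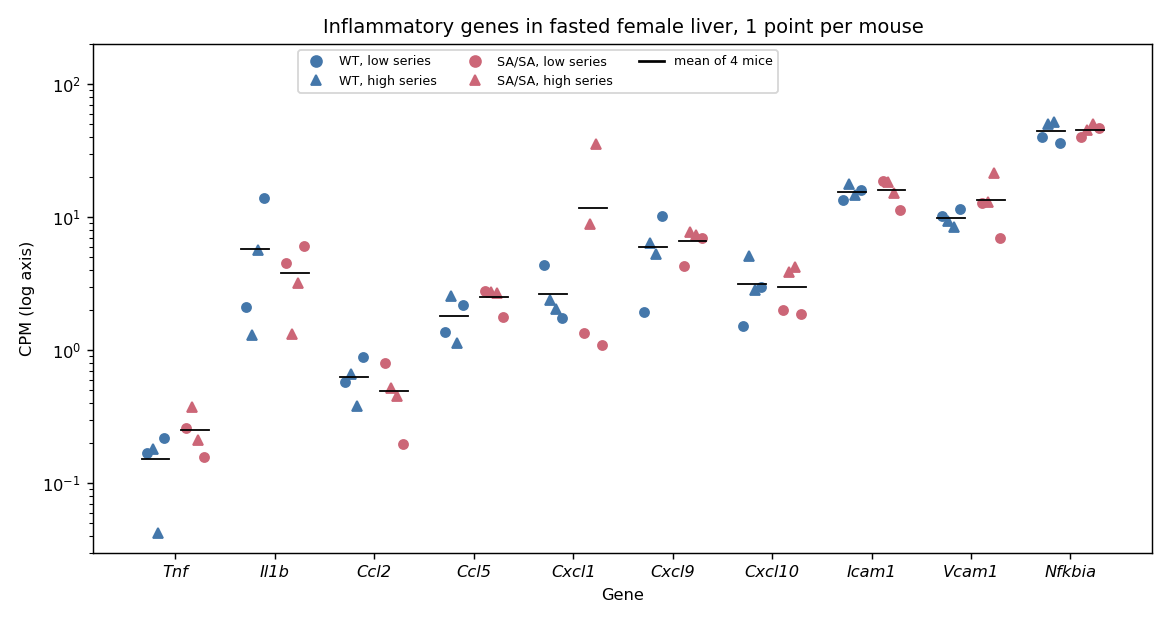
CPM of the 10 genes on a log axis, with 1 point per mouse, colour for genotype, circles for the low and triangles for the high animal series, and a black bar for the mean of 4 mice. The genotypes overlap for every gene, and the widest spread is that of Cxcl1, from 1.09 to 35.6 CPM.

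The labels name the tissue as liver and the cells as hepatocytes. Hepatocyte markers (Alb, Apoa1, Ttr, Cps1, Hnf4a) summed to between 83014 and 120601 CPM, but 8 markers of Kupffer cells and macrophages summed to between 187 and 432 CPM and 7 of endothelial cells to between 126 and 222 CPM, so the libraries hold RNA of the other liver cells too. In such bulk libraries, fewer cells of a type and less RNA per cell cannot be told apart. SA/SA replicate 3 stood apart: its B and plasma cell markers summed to 2062 CPM, with 18.4 to 46.1 CPM in the 7 other mice. WT replicate 2 held 26.8 CPM of pancreatic acinar markers, and the 7 other mice at most 0.612 CPM. Plin5, the edited gene, averaged 206 CPM in WT and 328 CPM in SA/SA mice (SD 32.3 and 118), and its level does not test the edited codon.

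The genes differed in how strongly they were expressed. Per kilobase of merged exons, which include retained introns where annotated, Nfkbia had a median of 28.6 CPM over the 8 mice and stood above 90.7% of the genes tested. Icam1 (3.57 CPM per kilobase), Ccl5 (2.47), Cxcl9 (2.22) and Il1b (2.01) followed near the middle of all genes. Cxcl10 (1.29), Vcam1 (1.22) and Cxcl1 (1.18) lay close together, and Ccl2 (0.481) and Tnf (0.119) were lowest. From Icam1 down to Cxcl1, the ranges over mice of neighbours in this order overlapped, as did those of Cxcl1 and Ccl2 and of Ccl2 and Tnf, while the lowest value of Nfkbia (22.2 CPM per kilobase) was above the highest of every other member (19.0, for Cxcl1 in 1 mouse).

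Promoters were compared because NF-κB acts on these genes through the κB motif. RefSeq (GRCm38.p6) gave a start for 7 of the 10 members: Tnf, Il1b, Cxcl1, Cxcl9, Cxcl10, Icam1 and Nfkbia. In the 250 bases before the start, on both strands, a match to the NF-κB consensus was found in 3 of 7, Cxcl1, Cxcl10 and Nfkbia, and in 7.25% of 32851 promoters. The core of the interferon-stimulated response element, searched as 2 copies of GAAA with any 2 bases between them, was found in Cxcl10 alone of the 7, and in 2.98% of all promoters. The gene with the widest spread, the neighbouring pair of interferon-γ chemokines and the inhibitor are shown, 5′ to 3′ on the strand of the gene, with both kinds of match in capitals.
Cxcl1, chr5:90890995-90891244, forward strand: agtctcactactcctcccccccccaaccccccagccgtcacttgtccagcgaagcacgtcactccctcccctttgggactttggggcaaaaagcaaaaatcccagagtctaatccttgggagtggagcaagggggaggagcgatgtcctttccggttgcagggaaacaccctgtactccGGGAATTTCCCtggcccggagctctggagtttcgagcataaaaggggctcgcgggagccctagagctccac
Cxcl10, chr5:92348890-92349139, reverse strand: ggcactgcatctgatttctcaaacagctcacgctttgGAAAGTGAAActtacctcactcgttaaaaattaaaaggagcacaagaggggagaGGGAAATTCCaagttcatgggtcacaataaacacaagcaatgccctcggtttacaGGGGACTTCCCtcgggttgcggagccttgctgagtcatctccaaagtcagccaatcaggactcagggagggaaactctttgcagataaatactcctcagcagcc
Cxcl9, chr5:92328080-92328329, reverse strand: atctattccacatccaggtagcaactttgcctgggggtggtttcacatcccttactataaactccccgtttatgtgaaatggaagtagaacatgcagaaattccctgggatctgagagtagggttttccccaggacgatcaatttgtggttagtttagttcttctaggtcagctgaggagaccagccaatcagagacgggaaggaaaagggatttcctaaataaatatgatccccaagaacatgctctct
Nfkbia, chr12:55492648-55492897, reverse strand: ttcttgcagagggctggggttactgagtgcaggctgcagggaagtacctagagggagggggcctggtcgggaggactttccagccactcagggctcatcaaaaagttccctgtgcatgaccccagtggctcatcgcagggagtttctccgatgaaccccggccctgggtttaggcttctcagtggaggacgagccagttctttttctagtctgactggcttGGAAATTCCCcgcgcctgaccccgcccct
In Cxcl1, a match on each strand, overlapping by all but 1 base, spans 71 to 61 bases before the start. Cxcl10 holds 1 κB match from 159 to 150 bases before the start, overlapping matches from 104 to 94, and the interferon element from 213 to 204. The match in Nfkbia lies 29 to 20 bases before the start. The sequence TATAAA was found in Tnf (29 to 24 bases before the start), Il1b (31 to 26) and Cxcl9 (195 to 190), and in 12.4% of all promoters. A gamma-activated site, TTCNNNGAA, was found in Icam1 (42 to 34 bases before the start) and in 7.02% of all promoters, and an AP-1 motif, TGANTCA, in Cxcl10 (74 to 68) and in 6.75%. A match is a description of letters and not evidence of binding.

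Tnf encodes the cytokine that opens many inflammatory cascades, and lies at chr17:35199381-35202007 (GRCm38, GENCODE release M21), with no other gene over it. Its estimated counts were between 2 and 18 per mouse, so it was measured near the limit of these libraries. In WT mice, replicates 1 to 4 had 0.168, 0.179, 0.0421 and 0.217 CPM. In SA/SA mice they had 0.260, 0.372, 0.211 and 0.158 CPM. WT replicate 3, with 2 counts, was the lowest mouse and SA/SA replicate 2, with 18 counts, the highest, and the other mice of both genotypes were mixed. The log2 fold change was 0.71 (standard error, SE, 0.52, adjusted p = 0.993 from edgeR; 95% interval -0.44 to 1.86), and a difference was not detectable at this depth (exact permutation test on log2 CPM, two-sided, p = 0.200). Without WT replicate 3 the log2 fold change was 0.41.

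Il1b encodes interleukin 1β, made by activated macrophages, monocytes and neutrophils, at chr2:129364570-129371139. It overlaps the antisense gene Il1bos, which had 1 to 8 counts per mouse. Il1b was at 2.11, 1.30, 5.68 and 13.9 CPM in WT replicates 1 to 4. In SA/SA replicates 1 to 4 it was at 4.49, 1.32, 3.19 and 6.11 CPM. The lowest mouse of each genotype had nearly the same level, and WT replicate 4 stood above every SA/SA mouse. This mouse also had the second-highest summed Kupffer and macrophage markers (384 CPM) and the highest red blood cell markers (2647 CPM, with 411 to 1462 CPM in the others). The highest Kupffer and macrophage sum, 432 CPM, was in SA/SA replicate 2, which had 1.32 CPM of Il1b. SA/SA replicate 4, with 6.11 CPM of Il1b, had a sum of 203 CPM. The part of these cells in the Il1b level was not tested. For Il1b the log2 fold change was -0.60 (SE 0.69, adjusted p = 0.993; exact permutation p = 0.829). The sign rested on WT replicate 4, since without that mouse the log2 fold change was 0.32.

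Ccl2, the main chemokine for CCR2-bearing monocytes, lies at chr11:82035571-82037453 inside the span of the antisense gene Gm17268, which had 0 counts in every mouse. WT replicates 1 to 4 had 0.578, 0.658, 0.379 and 0.888 CPM of Ccl2. SA/SA replicates 1 to 4 had 0.797, 0.517, 0.449 and 0.198 CPM. The groups overlapped between 0.379 and 0.797 CPM, with SA/SA replicate 4, at 10 counts, below every WT mouse and WT replicate 4 above all SA/SA mice. Ccl2 had a log2 fold change of -0.35 (SE 0.45, adjusted p = 0.993; exact permutation p = 0.429), which became -0.084 without SA/SA replicate 4. Ccr2, its receptor, averaged 0.740 CPM in WT and 0.802 CPM in SA/SA mice (SD 0.262 and 0.0570; log2 fold change 0.12, SE 0.35, adjusted p = 0.996).

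Ccl5 encodes RANTES, a product of T and NK cells, and lies at chr11:83525778-83530518. WT replicates 1 to 4 were at 1.38, 2.55, 1.14 and 2.19 CPM of Ccl5. SA/SA replicates 1 to 4 were at 2.78, 2.75, 2.67 and 1.78 CPM. In SA/SA liver, 3 mice sat within a narrow band above all WT mice, while SA/SA replicate 4 fell among the WT values. Its log2 fold change came to 0.46 (SE 0.30, 95% interval -0.21 to 1.13, adjusted p = 0.993; exact permutation p = 0.171), and it was 0.29 without WT replicate 3. Summed T and NK markers (9 genes) were at 2.87, 5.10, 3.05 and 5.29 CPM in WT replicates 1 to 4 and at 5.84, 5.11, 10.7 and 4.92 CPM in SA/SA replicates 1 to 4. The mice with the least Ccl5, WT replicates 1 and 3, were also those with the lowest sums of these markers, and the part of T and NK cell content in the Ccl5 level was not tested.

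Cxcl1 showed the widest spread of the 10 genes, and its standard deviation over 8 mice on the log2 scale (1.66) was larger than that of 99.4% of the genes tested. The gene, for a neutrophil attractant that signals through CXCR2, lies at chr5:90891241-90893115 with no other gene over it. WT replicates 1 to 4 had 4.38, 2.39, 2.02 and 1.74 CPM, from 88 to 235 counts. SA/SA replicates 1 to 4 had 1.33, 8.81, 35.6 and 1.09 CPM. In SA/SA mice, both animals of the high series were above every WT mouse and both animals of the low series were below every WT mouse, so the groups overlapped in a nested way. The highest mouse exceeded the lowest 32.7-fold. Cxcl1 had a log2 fold change of 2.14 (SE 0.95, 95% interval 0.017 to 4.27, unadjusted p = 0.0485, adjusted p = 0.993 from edgeR), while the exact permutation test of log2 CPM gave p = 0.543. Without SA/SA replicate 3, the mouse with the high plasma cell transcripts, the log2 fold change of Cxcl1 was 0.50. It stayed positive in every alternative run, between that value and 2.52 (without SA/SA replicate 4), and was 0.73 in limma-voom, 0.91 with a block for replicate number and 1.09 with a block for animal series.

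The Cxcl1 difference ran in opposite directions in the animal series. In the low series the SA/SA mean was lower by 1.17 in log2 CPM (a difference of -1.17), and in the high series it was higher by 2.99. The interaction of genotype and series was 4.66 on the log2 scale (SE 0.91, unadjusted p = 0.000761), with an adjusted p of 0.210 from edgeR, where 0% of all genes tested were called and 11.1% were at an unadjusted p under 0.05. The adjusted p of the Cxcl1 interaction was 0.00638 with DESeq2, which called 2.07% of genes, and 0.371 with limma-voom. In the edgeR alternatives with the filter on low counts it lay between 0.0733 (without SA/SA replicate 2) and 0.535 (without WT replicate 3). Without that filter it was 2.22e-29, in a fit that called 765 of 22439 genes and gave every gene the common trend of the spread in place of its own. Beside Cxcl1, summed neutrophil markers (7 genes, of which up to 2 were at 0 in a mouse) were highest in the same 2 mice, at 16.5 CPM in SA/SA replicate 2 and 11.4 CPM in SA/SA replicate 3, with 3.40 to 10.1 CPM in the others. Those were the 2 highest mice for S100a8, S100a9, Retnlg and Ly6g, but not for Csf3r, Mmp8 and Cxcr2. Csf3r was highest in SA/SA replicate 2 (4.09 CPM) but had 2.75 CPM in SA/SA replicate 3 against 3.59 CPM in WT replicate 2. Cxcr2 was highest in SA/SA replicate 3 (0.370 CPM) but had 0.227 CPM in SA/SA replicate 2 against 0.319 CPM in WT replicate 2. Mmp8 was highest in WT replicate 4 (0.276 CPM). Ly6g, the defining surface marker, was at 0.185 CPM at most. Hepatocyte markers also summed highest in SA/SA replicates 3 and 2 (120601 and 115544 CPM), with 83014 to 101973 CPM in the others. Of these markers, Alb and Hnf4a were highest in those 2 mice, but not Apoa1, Ttr and Cps1. Whether neutrophil or hepatocyte content has a part in the Cxcl1 level was not tested. Cxcr2 averaged 0.149 CPM in WT and 0.231 CPM in SA/SA mice (SD 0.144 and 0.0977; log2 fold change 0.60, SE 0.73, adjusted p = 0.993).

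**Figure D2:**
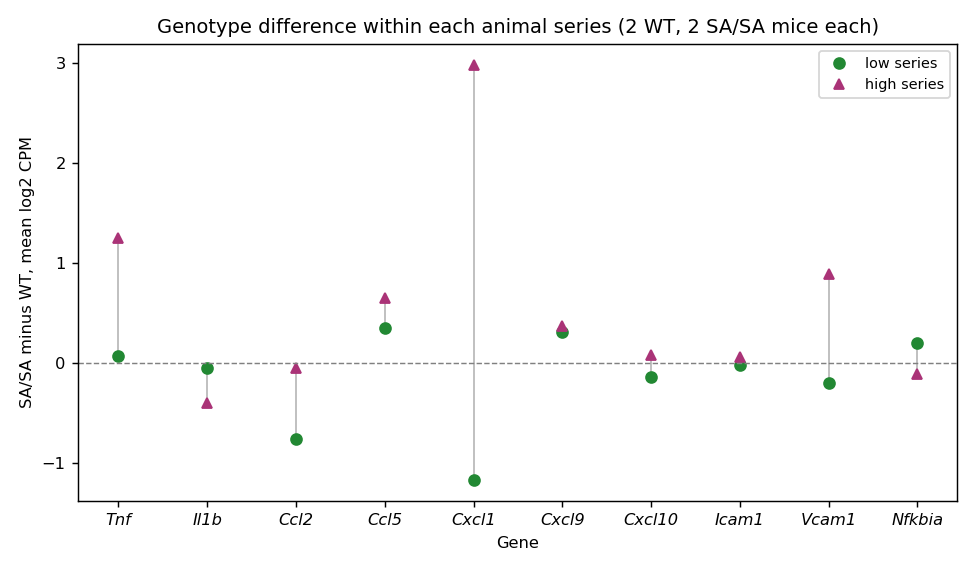
Difference in mean log2 CPM between SA/SA and WT mice within the low series (circles) and the high series (triangles), 2 mice of each genotype in each, with a grey line joining the 2 values of a gene. Cxcl1 spans from -1.17 to 2.99, and 5 of the 10 genes change sign between the series.

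Cxcl9 and Cxcl10 are neighbours on chromosome 5 (chr5:92321347-92328079 and chr5:92346638-92348889), 18558 bases apart, and both encode ligands of CXCR3 on activated T cells. Cxcl9 was at 1.92, 6.40, 5.31 and 10.2 CPM in WT replicates 1 to 4 and at 4.32, 7.67, 7.39 and 7.0 CPM in SA/SA replicates 1 to 4. All SA/SA values lay inside the WT range. Cxcl10 was at 1.53, 5.14, 2.82 and 3.0 CPM in WT replicates 1 to 4 and at 2.02, 3.89, 4.20 and 1.88 CPM in SA/SA replicates 1 to 4. Here too every SA/SA value was inside the WT range. WT replicate 1 was the lowest mouse for both chemokines, while their highest mice differed (WT replicate 4 for Cxcl9, WT replicate 2 for Cxcl10). The log2 fold changes were 0.15 for Cxcl9 (SE 0.41, adjusted p = 0.996; exact permutation p = 0.686) and -0.063 for Cxcl10 (SE 0.39, adjusted p = 0.999; exact permutation p = 0.943). Their 95% intervals were -0.76 to 1.05 and -0.94 to 0.81, so a doubling of Cxcl9 (1 on this scale) was inside its interval. Cxcl10 overlaps Art3 on the opposite strand, which had 22 to 131 counts per mouse, and the strand setting of the counting is not given in the sources used here. Cxcr3 averaged 0.748 CPM in WT and 1.07 CPM in SA/SA mice (SD 0.124 and 0.673; log2 fold change 0.50, SE 0.43, adjusted p = 0.993).

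Icam1, the endothelial and hepatocyte ligand of the leukocyte integrin LFA-1, lies at chr9:21015985-21028817 and overlaps Gm47079 on the opposite strand. WT replicates 1 to 4 had 13.4, 17.7, 14.5 and 16.0 CPM, and SA/SA replicates 1 to 4 had 18.7, 18.5, 15.1 and 11.2 CPM. The SA/SA mice enclosed the WT mice on both sides. Its log2 fold change was 0.043 (SE 0.17, 95% interval -0.34 to 0.42, adjusted p = 0.996; exact permutation p = 0.914). The genes of its integrin partners, Itgal and Itgb2, averaged 10.1 and 6.88 CPM in WT mice and 11.1 and 7.5 CPM in SA/SA mice (log2 fold changes 0.14 and 0.12, adjusted p = 0.993 and 0.996).

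Vcam1, the ligand of the integrin VLA-4, lies at chr3:116109949-116129688 and overlaps Gm43109 on the opposite strand. WT replicates 1 to 4 were at 10.1, 9.43, 8.44 and 11.5 CPM of Vcam1. SA/SA replicates 1 to 4 were at 12.7, 12.9, 21.4 and 6.98 CPM. Of the SA/SA mice, 3 were above every WT mouse and replicate 4 was below every WT mouse. Between genotypes, Vcam1 had a log2 fold change of 0.45 (SE 0.28, 95% interval -0.17 to 1.07, adjusted p = 0.993; exact permutation p = 0.371), and it was 0.14 without SA/SA replicate 3. The difference of SA/SA from WT in mean log2 CPM was -0.19 among low-series and 0.89 among high-series animals (interaction 1.07, SE 0.44, unadjusted p = 0.0387, adjusted p = 0.419 from edgeR). The adjusted p of this interaction lay between 0.261 and 0.804 in the other alternatives, except without the filter on low counts, where it was 0.0216. Summed endothelial markers were at 126 and 151 CPM in the SA/SA mice of the high series and between 154 and 222 CPM in the others, while Lyve1, a marker on that list, was highest in the same mice, at 9.41 and 15.0 CPM against 7.37 CPM at most. The part of endothelial content in the Vcam1 level was not tested. The gene for the α4 chain of VLA-4, Itga4, averaged 1.40 CPM in WT and 2.01 CPM in SA/SA mice (log2 fold change 0.51, SE 0.42, adjusted p = 0.993), and Itgb1 averaged 115 and 111 CPM (log2 fold change -0.042).

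Nfkbia, at chr12:55489410-55492647, was both the most abundant and the steadiest member. WT replicates 1 to 4 had 39.8, 50.3, 51.6 and 35.8 CPM. SA/SA replicates 1 to 4 had 39.7, 45.1, 49.8 and 47.1 CPM. The SA/SA values lay within the WT range, and the highest mouse exceeded the lowest 1.44-fold. The log2 fold change was 0.034 (SE 0.14, adjusted p = 0.996; exact permutation p = 0.829), with a 95% interval from -0.27 to 0.34 that excludes a doubling or halving (1 or -1 on this scale). Nfkbia and Icam1 were the only members with a SE under 0.2, where the median over all genes tested was 0.19 and over the members 0.40.

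**Figure D3:**
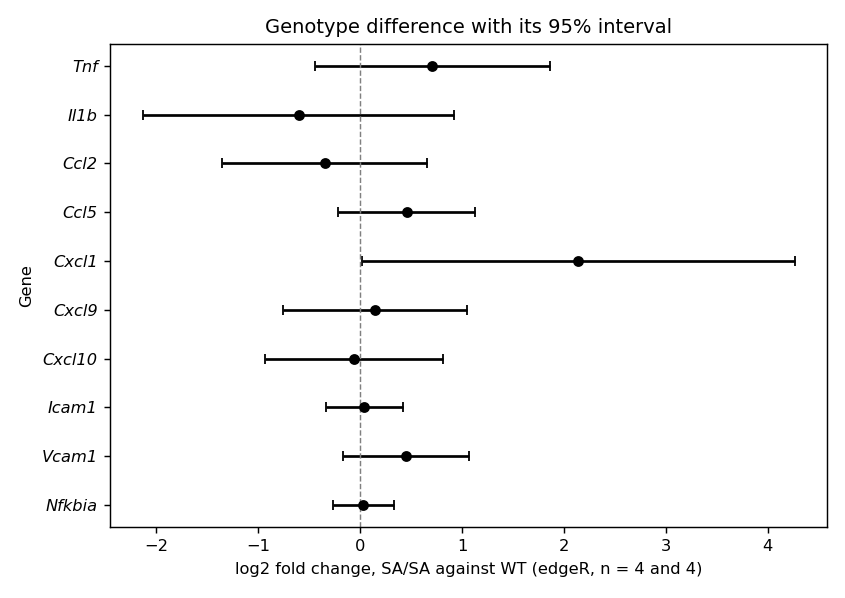
Log2 fold change of each gene, SA/SA against WT, from edgeR with its 95% interval, and a dashed line at 0. The intervals of Nfkbia and Icam1 are the narrowest, Cxcl1 has the widest (0.017 to 4.27), and the 9 other intervals include 0.

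Read mouse by mouse, the 10 genes did not rise or fall as a block. SA/SA replicates 2 and 3 were among the 4 highest mice in 7 of 10 genes each, and so was WT replicate 4. SA/SA replicate 4 was the lowest mouse in 4 genes (Ccl2, Cxcl1, Icam1, Vcam1), and WT replicates 1 and 3 in 2 each. Within the low series 4 of 10 members were higher in SA/SA mice, with a median difference of -0.035 in mean log2 CPM, and within the high series 7 of 10, with a median of 0.23. Over all genes tested, 49.4% and 48.9% were higher in SA/SA mice in the low and the high series. The medians over all genes tested were -0.0041 and -0.0092. The sign differed between the series in 5 of 10 members and in 54.9% of all genes tested. Ccl5, Cxcl9 and Tnf were higher, and Il1b and Ccl2 lower, in the SA/SA mice of both series. In the test of the interaction 0 of 10 members passed an adjusted p of 0.05 in edgeR, where 0% of all genes tested passed. Cxcl1 and Vcam1 were at an unadjusted p under 0.05, where 11.1% of all genes tested were below that value.

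**Figure D4:**
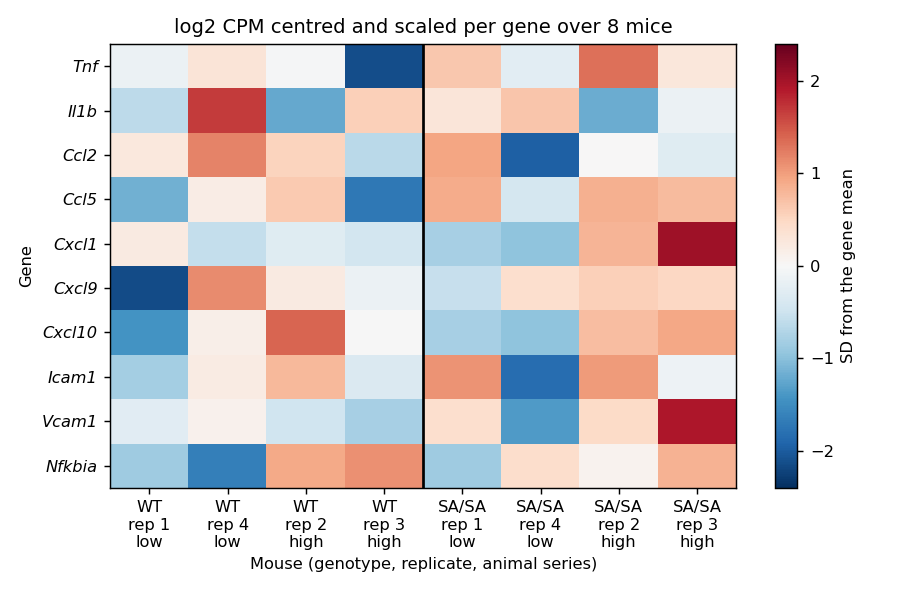
Log2 CPM of each gene in each mouse, centred and scaled per gene over the 8 mice (red above and blue below the gene's mean, in SD), with WT mice left and SA/SA mice right of the black line. The strongest reds of Cxcl1 and Vcam1 are in SA/SA replicate 3, and no gene separates the genotypes.

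Marker transcripts of the other liver cell types also varied between mice. Kupffer cell and macrophage markers summed to 252, 187, 229 and 384 CPM in WT replicates 1 to 4 and to 306, 432, 323 and 203 CPM in SA/SA replicates 1 to 4. All 8 of these markers had a positive log2 fold change (median 0.20), none passing the test, with 1 of 8 higher in SA/SA mice in the low series and 8 of 8 in the high series. The shares higher in the low and the high series were 49.4% and 48.9% over all genes tested. Monocyte markers summed to between 4.59 and 8.49 CPM in WT and between 5.71 and 9.95 CPM in SA/SA mice, with up to 1 of 5 markers at 0. Stellate cell markers summed to between 244 and 325 CPM in WT and 114 and 254 CPM in SA/SA mice, and cholangiocyte markers to between 5.17 and 11.3 CPM in all 8. Log2 fold changes were negative in 5 of 5 stellate (median -0.42) and 5 of 5 red blood cell markers (median -0.54). They were also negative in 5 of 7 endothelial (median -0.20) and 3 of 4 cholangiocyte markers (median -0.16). Red blood cell sums of SA/SA mice (951 to 1154 CPM) lay inside the WT range, from 411 CPM in replicate 1 to 2647 CPM in replicate 4. T and NK cell markers were positive in 7 of 8 tested genes and B and plasma cell markers in 7 of 7, with 2 and 3 at an unadjusted p under 0.05 (3.4% over all genes). The 2 were Cd3d, at 0.261 to 0.498 CPM in WT and 0.662 to 0.871 CPM in SA/SA mice, and Klrb1c, at 0.219 to 0.651 and 0.593 to 1.61 CPM. The groups did not overlap for Cd3d, nor for 2.3% of all genes tested. The 3 B and plasma cell genes, Ighm, Igkc and Jchain, were at 1164, 806 and 73.8 CPM in SA/SA replicate 3 and at most at 18.1, 21.2 and 2.07 CPM in the other mice. In the low series 3 of 7 B and plasma cell markers were higher in SA/SA mice. No marker of any list passed an adjusted p of 0.05. The part of cell content in the values of the 10 genes was not tested.

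**Figure D5:**
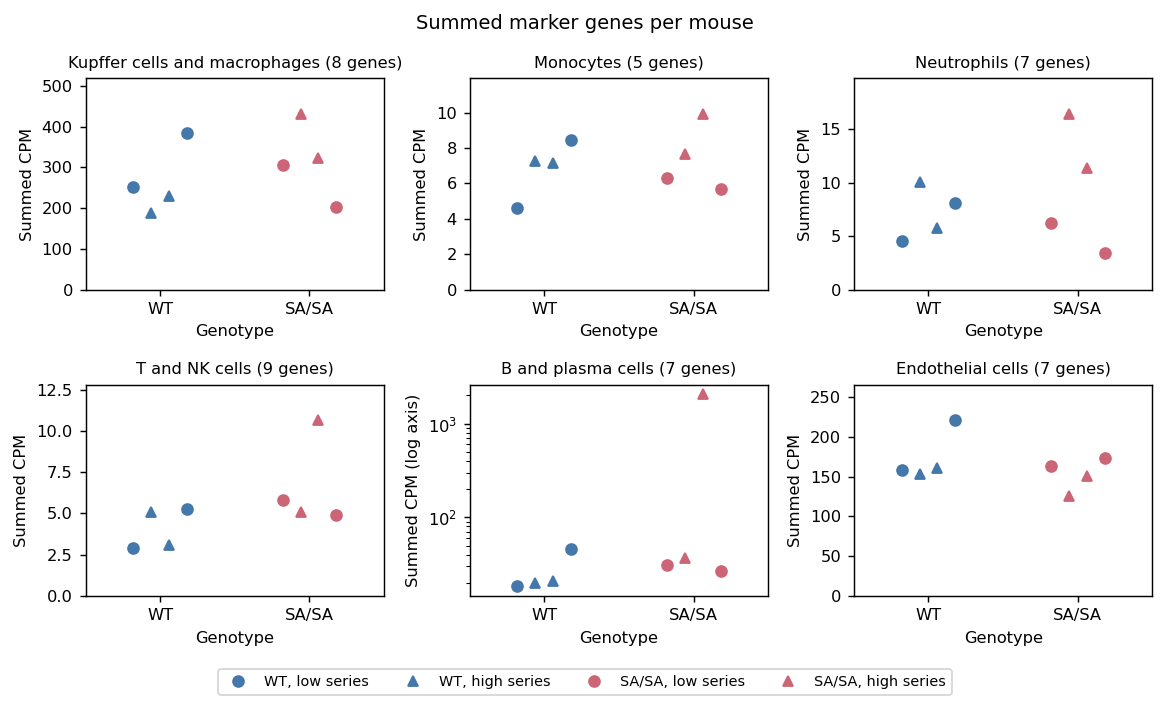
Summed CPM of fixed marker genes of 6 cell types per mouse, by genotype and animal series, with a log axis for B and plasma cells only. SA/SA replicate 3 is at 2062 CPM for B and plasma cells, and the triangles of SA/SA mice are the highest 2 points for neutrophils.

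Other genes of the same pathway gave a similar picture. Lists of cytokines, chemokines, receptors, NF-κB components, adhesion partners, interferon response and acute phase genes held 103 genes, of which 88 were tested. In edgeR 0 passed an adjusted p of 0.05 in either direction, where 0% of all genes tested passed. At an unadjusted p under 0.05 there was 1, where 3.4% of all genes tested were below that value. That gene was Cx3cl1, fractalkine, a chemokine that also acts as an adhesion molecule, at 1.15 ± 0.313 CPM in WT and 0.655 ± 0.170 CPM in SA/SA mice. Every SA/SA mouse (0.455 to 0.834 CPM) was below every WT mouse (0.876 to 1.60 CPM), where 2.3% of all genes tested had groups that did not overlap. The log2 fold change was -0.81 (SE 0.32, adjusted p = 0.993 from edgeR). The exact permutation p was 0.0286, the smallest that 4 mice against 4 allow. Any gene whose groups do not overlap has this value. Of 18 other chemokines 12 were tested, 9 with a positive log2 fold change and a median of 0.13. Cxcl12, the stromal chemokine that retains CXCR4-bearing leukocytes, was the most abundant of them, at 348 ± 34.2 CPM in WT and 302 ± 2.63 CPM in SA/SA mice (log2 fold change -0.21, adjusted p = 0.993), and Ccl9 was at 25.7 ± 5.51 and 35.9 ± 19.1 CPM (0.48, adjusted p = 0.993). Like Cxcl1, Ccl9 changed sign between the series, from -0.51 in the low to 1.19 in the high series (interaction, edgeR unadjusted p = 0.000725, adjusted p = 0.210). Cxcl2, also a neutrophil attractant, stayed under the filter with at most 0.315 CPM in a mouse.

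Of 13 other cytokines 8 were tested, with 4 positive and 4 negative log2 fold changes and a median of -0.0093. Il1a, which signals through the same receptor as Il1b, was at 2.70 ± 1.08 CPM in WT and 1.76 ± 0.540 CPM in SA/SA mice (log2 fold change -0.61, SE 0.34, adjusted p = 0.993), and Ltb, lymphotoxin β, at 1.32 ± 0.627 and 2.06 ± 1.08 CPM (0.63, SE 0.43). Il6, Il10 and Il12b were not tested, with at most 0.217 CPM in any mouse. Receptors and antagonists were tested for 11 of 13 genes, 9 of them positive with a median of 0.11. The TNF receptor Tnfrsf1a was at 85.2 ± 11.2 and 91.9 ± 10.2 CPM (0.11), Tnfrsf1b at 38.1 ± 3.10 and 40.5 ± 7.85 CPM (0.088) and the interleukin 1 receptor Il1r1 at 20.4 ± 11.2 and 21.3 ± 8.0 CPM (0.060). The Il1r1 difference changed sign between the series, from -0.77 among low-series to 0.99 among high-series animals (interaction, edgeR adjusted p = 0.282). Of the 11 receptor genes, 3 were higher in SA/SA mice among low-series and 10 among high-series animals. For the other cytokines these counts were 5 and 4 of 8, and for the other chemokines 5 and 9 of 12. Over all genes tested the shares were 49.4% and 48.9%.

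All 18 listed genes of NF-κB subunits, kinases and feedback inhibitors were tested, 10 with a positive and 8 with a negative log2 fold change and a median of 0.049. Rela, the subunit that IκBα holds in the cytoplasm, was at 51.9 ± 4.21 CPM in WT and 49.2 ± 4.51 CPM in SA/SA mice (log2 fold change -0.079), and Tnfaip3, the feedback inhibitor A20, at 3.97 ± 0.861 and 4.06 ± 0.638 CPM (0.030). Zfp36, which destabilizes cytokine mRNAs, was at 75.9 ± 12.0 and 105 ± 47.5 CPM (0.47, SE 0.31, adjusted p = 0.993), and Nfkb2 at 10.1 ± 1.95 and 11.5 ± 0.821 CPM (0.19). Adhesion partners were tested for 10 of 12 genes, 7 of them positive with a median of 0.13, and Itgam, a chain of the integrin Mac-1, had the smallest p at 1.5 ± 0.296 and 1.06 ± 0.333 CPM (-0.50, SE 0.31, adjusted p = 0.993). In the low and the high series, 10 and 11 of the 18 NF-κB genes and 4 and 8 of the 10 adhesion partners were higher in SA/SA mice. Over all genes tested the shares were 49.4% and 48.9%.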

How the data were processed

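The study sequenced mRNA of fasted female liver, 1 library per mouse, from 4 WT and 4 SA/SA mice, as stranded libraries read in 100 base pairs per end. The deposited values are estimated counts that the authors made with salmon, scaled for average transcript length between samples and not for library size. The submitters' processing notes name the build GRCm38, STAR and DESeq2 without roles, and the salmon version, annotation release and strand setting are not given in the sources used here. Reads shared by overlapping genes were divided by the authors' counting. Table columns were matched to mice by animal number, and 0 columns of other samples were present. Totals ran from 39709785 to 54540864 per library, and no 2 libraries were copies (chi-square per gene of at least 40.2 between any pair).

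Counts were rounded, genes kept with filterByExpr (14629 of 45706) and genotypes compared by edgeR 4.0.16 (quasi-likelihood test, TMM, R 4.3.3) over all genes, with Benjamini-Hochberg adjustment at 0.05. All 10 members passed the filter. Standard errors come from the F statistic, and 95% intervals use edgeR's 10.0 degrees of freedom. The fold change compares mean levels, whereas differences within a series compare mean log2 CPM (prior count 2), so they need not add up. The exact permutation test is two-sided, with a smallest p of 0.0286. Alternatives were DESeq2 1.42.0, limma-voom 3.58.1, DESeq2 size factors, library size alone, no filter, a filter of 1 CPM in 4 mice, blocks for replicate number and series, a prior count of 0.5, and leaving out each mouse. The replicate numbers were not taken as pairs. Gene spans are from GENCODE release M21 (45143 identifiers matched), promoter sequences from RefSeq. The named genes were the 10 members, their receptors and partners, and up to 3 genes with the smallest p per list, together with the edited gene and markers. Further list genes (Rela, Tnfaip3, Cxcl2, Il6, Il10, Il12b) were chosen for naming with their values in view. The members and lists were chosen with earlier results of these data known.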

Additional observations from a re-analysis of the deposited data

Results flagged for a closer look

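Among 44 groups of 4 mice (the 10 genes, Plin5 and 11 cell marker sums, in each genotype), 6 held a mouse far from the 3 others on the log2 scale, where chance gives about 2. The acinar markers of WT replicate 2 (26.8 CPM, with 0.0421 to 0.612 CPM in the other WT mice) did not meet this on the log2 scale. Ccl5 was at 1.78 CPM in SA/SA replicate 4, with 2.67 to 2.78 CPM in the other SA/SA mice. Cxcl9 was at 4.32 CPM in SA/SA replicate 1, with 7.0 to 7.67 CPM in the others. The B and plasma cell markers summed to 2062 CPM in SA/SA replicate 3, with 26.7 to 36.7 CPM in the others, and to 46.1 CPM in WT replicate 4, with 18.4 to 20.8 CPM in the others. The endothelial markers summed to 222 CPM in WT replicate 4, with 154 to 161 CPM in the other WT mice. The stellate cell markers summed to 325 CPM in WT replicate 4, with 244 to 252 CPM in the other WT mice. The same WT mouse had the highest Il1b and Cxcl9 of all 8 mice.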

How the results depend on the processing

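No alternative called any of the 10 genes for genotype: the smallest adjusted p of a member was 0.798, for Cxcl1 without SA/SA replicate 1. Over all genes, DESeq2 called 6 of 14603 (0.0411%), limma-voom and the edgeR alternatives 0. In the interaction with the animal series, DESeq2 called 1 member (Cxcl1) and edgeR without a filter on low counts 2 (Cxcl1 and Vcam1), the other alternatives 0. With library size alone, the log2 fold change of Nfkbia was -0.0069. With 1 mouse left out, log2 fold changes ran from -0.94 to 0.32 for Il1b, -0.14 to 0.54 for Cxcl9, -0.29 to 0.29 for Cxcl10, -0.045 to 0.18 for Icam1 and -0.056 to 0.11 for Nfkbia, and kept their sign for the other members in the fits that tested them. Those ran from 0.41 to 0.93 for Tnf, -0.69 to -0.084 for Ccl2, 0.29 to 0.67 for Ccl5, 0.50 to 2.52 for Cxcl1 and 0.14 to 0.66 for Vcam1. Interaction values then ran from -1.96 to 1.39 for Il1b, -0.22 to 1.77 for Ccl2, -0.27 to 0.90 for Ccl5, -1.19 to 1.22 for Cxcl9, -0.33 to 0.73 for Cxcl10 and -0.29 to 0.45 for Icam1, and kept their sign for Cxcl1, Vcam1 and Nfkbia. Tnf passed the filter on low counts in 6 of these 8 fits (not without SA/SA replicate 1 or 2), with positive values in each. Those 2 mice had the highest Tnf, at 0.260 and 0.372 CPM, and all 6 fits kept both. The stricter filter removed Tnf and Ccl2. With the replicate number as a block, edgeR called 0 genes and 0 of 10 members. Same-numbered mice correlated between -0.11 and 0.17 across genes, 5 of 8 mice correlated best with their own number, and the labels tie the numbers to nothing shared. Depth limits Tnf and Ccl2 most, at 2 to 18 and 10 to 45 counts per mouse. P-values measure the spread between 8 single mice of 2 animal series.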

Other observations

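All 18 listed interferon response genes were tested, 8 with a positive and 10 with a negative log2 fold change and a median of -0.029. In edgeR's quasi-likelihood test 0 passed an adjusted p of 0.05, where 0% of all genes tested passed. There were 0 at an unadjusted p under 0.05, where 3.4% of all genes tested were below that value. In the low series 5 of 18 were higher in SA/SA mice, with a median difference of -0.20 in mean log2 CPM, and in the high series 12 of 18, with a median of 0.069. Over all genes tested, 49.4% were higher in SA/SA mice in the low and 48.9% in the high series. Irf1, a transcription factor of the interferon response, was at 32.6 ± 6.39 CPM in WT and 32.7 ± 7.61 CPM (SD over 4 mice) in SA/SA mice and was chosen with its values in view. The receptor gene Ifngr2 was at 21.1 ± 4.79 and 18.2 ± 1.69 CPM (log2 fold change -0.22, SE 0.16, adjusted p = 0.993).

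Acute phase genes, which hepatocytes switch on under interleukin 6 and interleukin 1, showed the split between the animal series most evenly of the 7 pathway lists. In the low series 0 of 11 genes were higher in SA/SA mice, with a median difference of -0.69 in mean log2 CPM, and in the high series 11 of 11, with a median of 0.56. The shares over all genes tested were 49.4% in the low and 48.9% in the high series. Pooled, 2 of 11 had a positive log2 fold change with a median of -0.15. In edgeR 0 passed an adjusted p of 0.05, where 0% of all genes tested passed. At an unadjusted p under 0.05 there were 0, where 3.4% of all genes tested were below that value. The edgeR interaction called 0 of 11, and 0% of all genes tested. Its unadjusted p was 0.00114 for Socs3, 0.000574 for Fgg and 0.0442 for Orm1, where 11.1% of all genes tested were under 0.05. It was also under 0.05 for Lcn2 (0.00405), Itih4 (0.00626), Saa1 (0.00710), Saa2 (0.0199), Hp (0.0226) and Apcs (0.0254). For Saa3 (0.205) and Orm2 (0.0621) it was above 0.05. Socs3, Fgg and Orm1 had the smallest pooled p of the list. Socs3, a feedback inhibitor of interleukin 6 signalling, was at 11.0 ± 4.07 CPM in WT and 15.1 ± 5.50 CPM in SA/SA mice (log2 fold change 0.46, SE 0.30, adjusted p = 0.993), Fgg, a fibrinogen chain, at 2694 ± 917 and 2314 ± 232 CPM (-0.22) and Orm1 at 571 ± 148 and 513 ± 144 CPM (-0.15).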
